A study of Homo sapiens with 2 samples.

Results

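PDZ-LIM genes and FHL genes, the LIM-only family whose names abbreviate their number of LIM domains, were described in A549 cells that overexpress MYOCD and in wild-type A549 cells (WT). The members were taken by gene symbol, 7 PDZ-LIM genes (PDLIM1, PDLIM2, PDLIM3, PDLIM4, PDLIM5, PDLIM7 and LDB3) and 3 FHL genes (FHL1, FHL2 and FHL3), and these were 10 of the 56255 symbols measured. Each stood on 1 row of the expression table. A549 is an established line of human lung adenocarcinoma cells, and the product of MYOCD, myocardin, partners SRF in switching on genes of smooth muscle and heart. The MYOCD group was labelled only with overexpression of that gene and the WT group with no treatment, and both were grown in DMEM with 10% serum. The vector, the length of overexpression, whether the cells were a clone or a pool, and whether WT cells carried an empty vector are not stated in the labels. The WT values are headed A549_rtt and the MYOCD values A549_M, and the key to these names gives only WT and MYOCD overexpression. The study had 2 libraries, 1 of each group, so no value below has a replicate error, no test was made, and every difference is one between 2 libraries.

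Both protein families put LIM domains, which are zinc-binding modules for contacts between proteins, onto the actin cytoskeleton. In a PDZ-LIM protein a PDZ domain at one end holds alpha-actinin, the protein that cross-links actin filaments in stress fibres and in the Z-discs of muscle, and the LIM end binds kinases and other signalling proteins. FHL proteins consist of LIM domains with little else, and they move between adhesions, filaments and the nucleus, where they act as cofactors of transcription. Several members are muscle genes and some are known targets of SRF, which binds a DNA element called the CArG box together with myocardin or its relatives.

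Expression was given as RPKM, reads normalised to gene length and library size. Levels of different genes are compared below on that basis. The annotation that gave the gene lengths is unknown, so such comparisons depend on lengths that could not be checked. The log2 change was log2((MYOCD RPKM + 0.5)/(WT RPKM + 0.5)), and the added 0.5 makes changes of weakly expressed genes look smaller. A gene was counted if either library reached 1 RPKM, and it was called higher or lower if this change was 2-fold or more. This is a rule of size, with no test behind it. Of the 17350 genes counted, 5.42% were called higher and 6.35% were called lower in the MYOCD library (3.02% and 3.10% of the 12337 protein-coding ones), and the median log2 change was -0.00. The deposited RPKM summed to 880876 in the MYOCD library and 886700 in the WT library, and the sequencing depth is unknown. MYOCD itself stood at 48.6 RPKM in the MYOCD library and 0.304 RPKM in the WT library, in the direction of the labels.

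Among the members, 1 gene stood out by size. PDLIM7 was called higher in the MYOCD library, no member was called lower, and the other 6 counted members lay under 2-fold. PDLIM3, PDLIM4 and LDB3 stayed below 1 RPKM in both libraries and were not counted. The median log2 change of the 7 counted members was 0.02, next to -0.00 for all counted genes. In a bulk sample, more RNA per cell and more cells that contain it cannot be told apart.

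**Figure D1:**
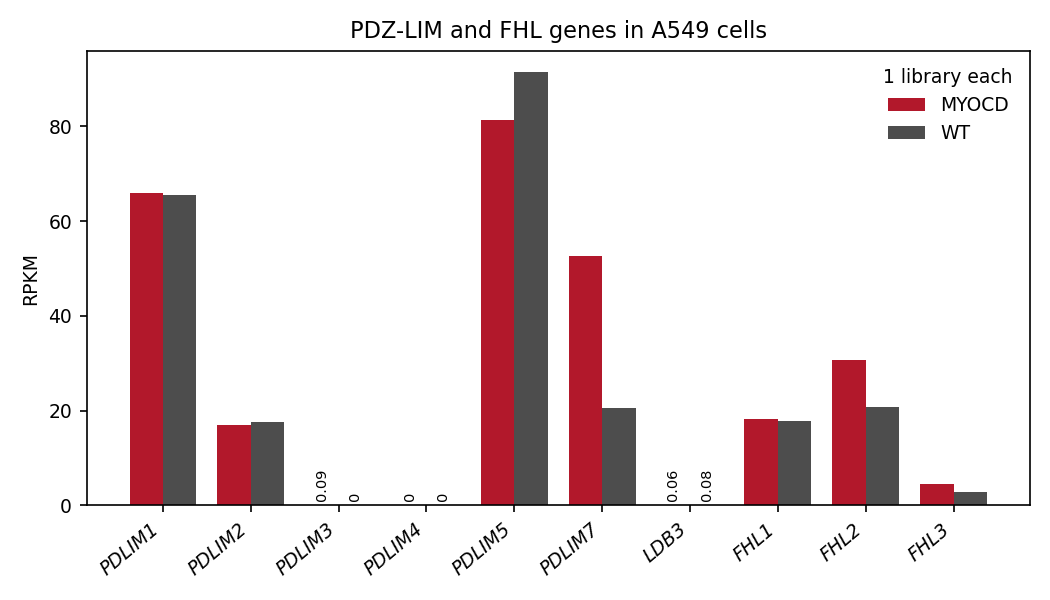
RPKM of the 10 members in the MYOCD library (red bars, left of each pair) and the WT library (grey bars), 1 library each and without error bars. PDLIM7 shows the widest gap, 52.7 against 20.5 RPKM, and PDLIM3, PDLIM4 and LDB3 lie below 1 RPKM, with their values printed above the axis.

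PDLIM7 encodes Enigma, a PDZ-LIM protein with several LIM domains that binds actin filaments through tropomyosin and the receptors RET and insulin receptor through its LIM end. The gene lies on the minus strand of chromosome 5 from 177483394 to 177497606 (GRCh38, GENCODE release 29). PDLIM7 stood at 52.7 RPKM in the MYOCD library and 20.5 RPKM in the WT library. Its level was 2.57 times as high in the MYOCD library, or a log2 change of 1.34 with the pseudocount. Of all counted genes 3.48% had a larger log2 change, and PDLIM7 ranked 605 from the highest. By level it ranked 2197 among the counted genes of the MYOCD library and 5396 in the WT library.

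The nearest protein-coding genes on both sides of PDLIM7 lie on its strand. DBN1, the gene of the actin-binding protein drebrin, starts its span 8992 bases beyond the downstream end and stood at 61.8 RPKM in the MYOCD library and 37.0 RPKM in the WT library. DOK3, the gene of an adaptor protein of immune receptor signalling, lies 4300 bases upstream and stood at 3.95 RPKM in the MYOCD library and 2.39 RPKM in the WT library. Their log2 changes were 0.73 and 0.62, so both were higher in the MYOCD library, by less than 2-fold and by less than PDLIM7. The nearest gene of any type on the downstream side, AC145098.2, stood at 0.967 and 0.390 RPKM in the MYOCD and WT libraries. An antisense gene inside PDLIM7, AC145098.1, shares no exon bases with it and stood at 1.30 RPKM in the MYOCD library and 0.555 RPKM in the WT library.

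The stretch around the RefSeq start held for PDLIM7 is shown because the gene had the largest change of the family. It runs from 250 bases before the start to 50 bases after it, at chr5:177497555-177497854 on the minus strand (RefSeq, GRCh38.p14), and is written 5′ to 3′. A search on both strands found no CArG box in it, so no base is in capitals. Of its bases 71.3% are G or C, where the median of all such windows was 58.7%.
PDLIM7: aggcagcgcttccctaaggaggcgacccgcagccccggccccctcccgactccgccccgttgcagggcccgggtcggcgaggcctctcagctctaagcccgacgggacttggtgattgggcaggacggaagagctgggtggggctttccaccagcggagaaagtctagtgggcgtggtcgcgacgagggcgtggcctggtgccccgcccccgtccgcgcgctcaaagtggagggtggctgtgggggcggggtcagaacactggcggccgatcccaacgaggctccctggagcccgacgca

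PDLIM5 encodes ENH, the PDZ-LIM protein closest in plan to Enigma, which anchors protein kinase C isoforms and can hold the inhibitor protein ID2 in the cytoplasm. It lies on the plus strand of chromosome 4 from 94451857 to 94668227. PDLIM5 was the most abundant member in both libraries, with 81.4 RPKM in the MYOCD library and 91.4 RPKM in the WT library. Its log2 change of -0.17 was the lowest of the counted members. The gene has 23 annotated transcripts, some of which are known to lack the LIM end, and the values per gene do not separate them.

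LDB3, also called ZASP or Cypher, is the third gene of the Enigma group and encodes a Z-disc protein of heart and skeletal muscle. It lies on the plus strand of chromosome 10 from 86668449 to 86736068. LDB3 stood at 0.0647 RPKM in the MYOCD library and 0.0832 RPKM in the WT library. Both libraries were thus far below the level at which genes were counted. The 3 Enigma-type genes therefore differed among themselves, with 1 called higher, 1 abundant and under 2-fold and 1 barely detected.

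The remaining PDZ-LIM genes encode proteins of the ALP type, with a single LIM domain. PDLIM1, whose product binds alpha-actinin in epithelial and muscle cells, lies on the minus strand of chromosome 10 from 95237572 to 95291024. It stood at 65.9 RPKM in the MYOCD library and 65.4 RPKM in the WT library, a log2 change of 0.01. Although PDLIM1 was the second most abundant member in both libraries, its values differed by 0.733%.

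PDLIM2, whose product is known for promoting the breakdown of STAT and NF-kB proteins in the nucleus, lies on the plus strand of chromosome 8 from 22578279 to 22598025. It stood at 16.9 RPKM in the MYOCD library and 17.5 RPKM in the WT library, a log2 change of -0.05. When steady reference genes were set to a median change of 0 the log2 change of PDLIM2 was 0.04, so its direction depends on the scaling. Exons of PDLIM2 share 465 bases with AC037459.1 on the same strand, a gene listed at 0 in both libraries.

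PDLIM3 encodes ALP itself, a Z-disc protein of skeletal and heart muscle, and lies on the minus strand of chromosome 4 from 185500660 to 185535612. It stood at 0.0881 RPKM in the MYOCD library and was listed at 0 in the WT library. PDLIM4 encodes RIL, an ALP-type protein of stress fibres, and lies on the plus strand of chromosome 5 from 132257671 to 132273454. It was listed at 0 in both libraries. PDLIM4 overlaps the span of P4HA2, a collagen prolyl hydroxylase gene on the opposite strand with which it shares no exon bases, and P4HA2 stood at 24.7 RPKM in the MYOCD library and 16.0 RPKM in the WT library. The muscle gene of the ALP group was thus near 0 in both libraries, as was the muscle gene of the Enigma group.

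The makeup of the PDZ-LIM family differed between the libraries. PDLIM7 held 24.3% of the summed RPKM of the 7 genes in the MYOCD library and 10.5% in the WT library. PDLIM5 held 37.5% in the MYOCD library and 46.9% in the WT library, and PDLIM1 held 30.4% in the MYOCD library and 33.6% in the WT library. PDLIM2 held 7.79% in the MYOCD library and 8.97% in the WT library. The sum of the 7 genes was 217.0 RPKM in the MYOCD library and 194.8 RPKM in the WT library. Without PDLIM7 it was 164.3 RPKM in the MYOCD library and 174.4 RPKM in the WT library, so the higher sum rested on PDLIM7. Relative to PDLIM5, PDLIM7 stood at 0.648 in the MYOCD library and 0.224 in the WT library, and these ratios do not depend on how the libraries were scaled.

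**Figure D2:**
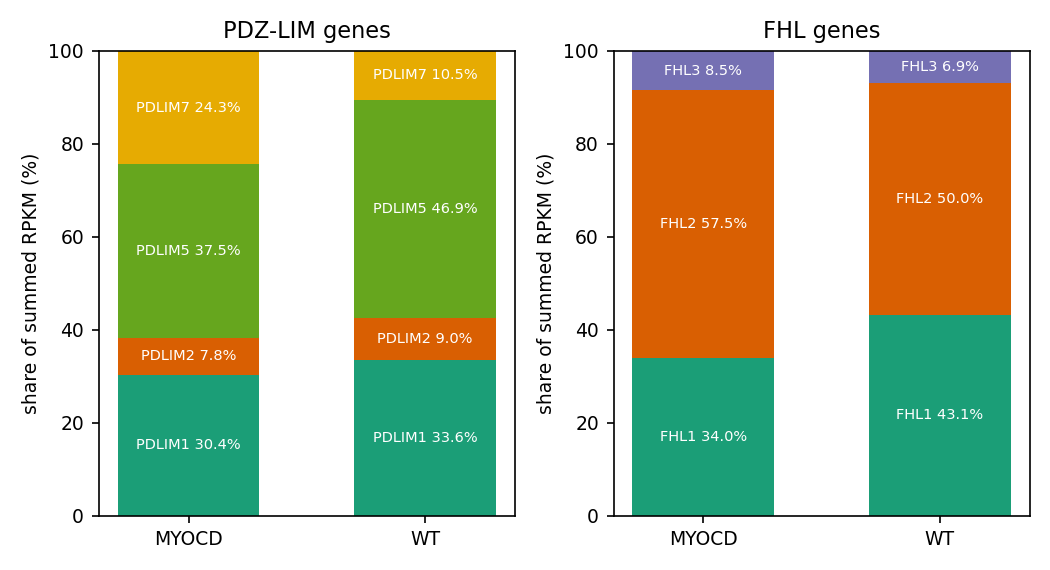
Share of the summed RPKM of the PDZ-LIM genes (left panel) and the FHL genes (right panel) that each gene held, in percent, with the MYOCD library left of the WT library in each panel. Genes that held under 1% are not drawn. PDLIM7 held 24.3% of the PDZ-LIM sum in the MYOCD library and 10.5% in the WT library, and FHL1 held 34.0% of the FHL sum in the MYOCD library and 43.1% in the WT library.

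The FHL genes lay at or above their WT levels, all under 2-fold. FHL2, whose product is found in heart muscle and at focal adhesions and acts as a cofactor of the androgen receptor and beta-catenin, lies on the minus strand of chromosome 2 from 105357712 to 105438513. FHL2 stood at 30.7 RPKM in the MYOCD library and 20.7 RPKM in the WT library. This was 1.48 times the WT level and a log2 change of 0.56, and 12.3% of counted genes had a larger log2 change. The exons of FHL2 share 122 bases, or 1.84% of their length, with the antisense gene AC108058.1, which stood at 1.27 RPKM in the MYOCD library and 0.578 RPKM in the WT library. No source used here says whether counting used strand, so reads from the shared bases cannot be assigned to either gene.

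FHL3, a LIM-only gene known from skeletal muscle, lies on the minus strand of chromosome 1 from 37996770 to 38005606. It stood at 4.55 RPKM in the MYOCD library and 2.85 RPKM in the WT library, a ratio of 1.60 and a log2 change of 0.59. FHL3 was the least abundant of the 7 counted members in both libraries. FHL1, in which mutations cause muscle disease, lies on the plus strand of chromosome X from 136146702 to 136211359. It stood at 18.1 RPKM in the MYOCD library and 17.9 RPKM in the WT library, a log2 change of 0.02. FHL1 was thus level between the libraries within 1.56%, while FHL2 and FHL3 were higher in the MYOCD library by about the same factor.

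With a rule of 1.5-fold in place of 2-fold, a choice made after the values had been seen, PDLIM7 and FHL3 were higher and no member was lower. This rule called 11.6% of all counted genes higher and 13.2% lower. FHL2, at 1.47-fold with the pseudocount, lay just under that limit and FHL3, at 1.51-fold, just above it. The summed RPKM of the FHL genes was 53.4 in the MYOCD library and 41.4 in the WT library. FHL2 stood at 1.69 times the level of FHL1 in the MYOCD library and 1.16 times in the WT library. FHL1 held 34.0% of the sum in the MYOCD library and 43.1% in the WT library, and FHL3 held 8.53% in the MYOCD library and 6.88% in the WT library. Summed over all 10 members, the level was 270.4 RPKM in the MYOCD library and 236.3 RPKM in the WT library, a difference of 34.1 RPKM, and PDLIM7 alone differed by 32.2 RPKM.

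**Figure D3:**
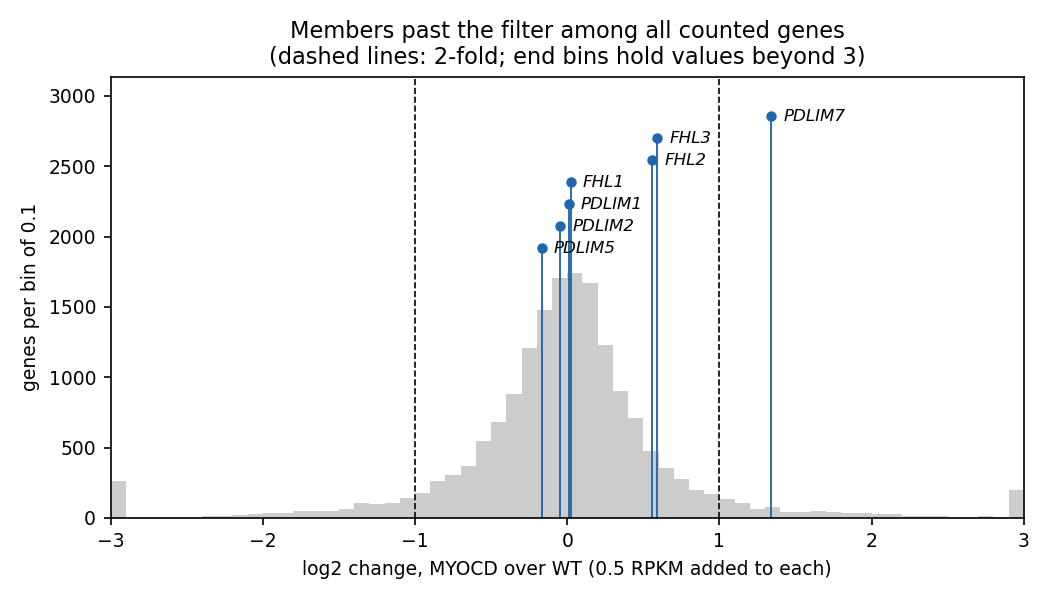
Number of counted genes per bin of log2 change, MYOCD over WT with 0.5 RPKM added to each value (grey, the end bins hold all values beyond 3 in either direction), and the 7 counted members as blue lines whose heights only separate the labels. Dashed lines mark 2-fold. PDLIM7 at 1.34 lies beyond the line, FHL3 at 0.59 and FHL2 at 0.56 lie on the right flank, and the remaining 4 members lie between -0.17 and 0.02.

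The order of the levels in the MYOCD library was PDLIM5, PDLIM1, PDLIM7, FHL2, FHL1, PDLIM2, FHL3, PDLIM3, LDB3 and PDLIM4. In the WT library FHL2 stood ahead of PDLIM7, and LDB3 ahead of PDLIM3. In the WT library FHL2, PDLIM7, FHL1 and PDLIM2 lay within 17.5 to 20.7 RPKM of each other, and their order there has no replicate error to judge it by. In the MYOCD library the same genes spread from 16.9 RPKM for PDLIM2 to 52.7 RPKM for PDLIM7. Pseudogenes that resemble a member were near 0, since PDLIM1P1, PDLIM1P2 and PDLIM1P3 were listed at 0 in both libraries and PDLIM1P4 stood at 0.154 RPKM in the MYOCD library and was listed at 0 in the WT library.

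The start windows of the members were searched for the CArG box, since MYOCD acts through SRF. RefSeq start windows of 300 bases were held for 9 members, 24 windows in all, with none for PDLIM2. A CArG box, searched on both strands with all its central bases A or T, was present in 6 windows of 3 members, which by position are 4 distinct sites. Of all 35116 windows given by RefSeq, 1.29% held one, and 1.60% of the 27305 symbols had one in at least 1 window. FHL2 had a CArG box in 3 of its 4 windows, LDB3 in both of its windows and FHL1 in 1 of 12 windows, and a gene with more windows has more chances of a match. None was found in the windows of PDLIM1, PDLIM3, PDLIM4, PDLIM5, PDLIM7 or FHL3. PDLIM7, with the largest change, had no match in its window, and LDB3 had a match and stayed below 0.1 RPKM in both libraries. GENCODE gives PDLIM7 13 transcript starts, and only 1 window of it was searched. The part of CArG boxes in any of these levels was not tested.

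The windows of FHL2, FHL1 and LDB3 that hold a CArG box are shown to compare the sites, with the box in capitals, 5′ to 3′ on the strand of the gene (RefSeq, GRCh38.p14). The FHL2 windows lie on the minus strand at chr2:105399002-105399301 (inner start) and chr2:105438464-105438763 (outer start), the FHL1 window on the plus strand at chrX:136196797-136197096, and the LDB3 window on the plus strand at chr10:86668314-86668613. The box begins 59 bases before the inner start and 101 bases before the outer start of FHL2. It begins 126 bases before the RefSeq start of the FHL1 window shown and 110 bases before that of the LDB3 window shown. By position the inner FHL2, FHL1 and LDB3 boxes lie inside the GENCODE spans of their genes given above. A second outer window of FHL2 and a second LDB3 window overlap those shown and hold the same sites.
FHL2 inner start: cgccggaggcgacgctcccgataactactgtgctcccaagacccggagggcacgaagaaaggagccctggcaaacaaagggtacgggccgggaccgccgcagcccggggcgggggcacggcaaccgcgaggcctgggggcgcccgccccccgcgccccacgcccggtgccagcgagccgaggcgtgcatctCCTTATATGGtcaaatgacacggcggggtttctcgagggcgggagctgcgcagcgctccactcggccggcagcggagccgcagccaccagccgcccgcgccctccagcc
FHL2 outer start: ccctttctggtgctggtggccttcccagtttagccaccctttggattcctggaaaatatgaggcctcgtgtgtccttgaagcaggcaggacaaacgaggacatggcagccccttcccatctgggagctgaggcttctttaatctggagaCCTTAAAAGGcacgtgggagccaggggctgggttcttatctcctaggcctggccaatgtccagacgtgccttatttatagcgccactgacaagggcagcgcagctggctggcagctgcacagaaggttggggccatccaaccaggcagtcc
FHL1: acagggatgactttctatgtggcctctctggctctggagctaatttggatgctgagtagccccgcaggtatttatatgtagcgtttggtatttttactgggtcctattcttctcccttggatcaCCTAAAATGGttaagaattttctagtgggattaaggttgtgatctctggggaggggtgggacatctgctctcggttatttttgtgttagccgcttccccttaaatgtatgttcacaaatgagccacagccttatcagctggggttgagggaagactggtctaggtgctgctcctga
LDB3: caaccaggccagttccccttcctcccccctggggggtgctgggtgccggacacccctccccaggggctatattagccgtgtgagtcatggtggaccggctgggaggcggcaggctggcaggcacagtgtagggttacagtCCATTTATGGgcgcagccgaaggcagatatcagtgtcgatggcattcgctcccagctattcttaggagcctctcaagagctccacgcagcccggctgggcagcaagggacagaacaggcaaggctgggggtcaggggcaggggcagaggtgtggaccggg

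The same windows were searched for other letters. A MEF2 site, searched by its usual consensus, was present in 2 of the 24, which are the overlapping outer windows of FHL2, and in 2.99% of all windows. In the outer FHL2 window shown it begins 31 bases before the start and overlaps a TATAAA match. GGAATG, the core of the M-CAT element bound by TEAD factors, was found on either strand in 2 member windows (1 each of FHL1 and FHL2) and in 14.0% of all windows. TGACTCA, an AP-1 element, was found in 4 member windows (2 overlapping each of FHL1 and LDB3) and in 4.95% of all windows. TATAAA was found in 5 member windows and in 11.5% of all windows. These matches describe letters in short windows and not bound sites, and the values per gene do not show which start was used.

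**Figure D4:**
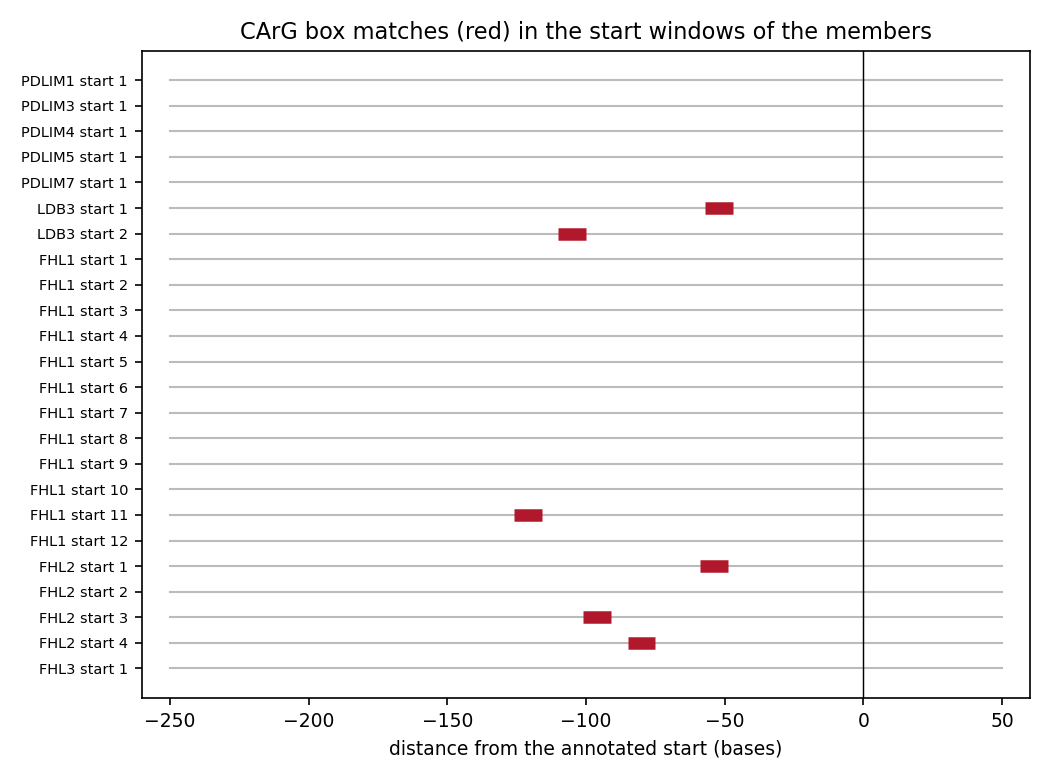
Position of CArG box matches (red) in the 24 start windows of 9 members, from 250 bases before to 50 bases after each annotated start, with distance from the start in bases on the x axis. Matches are seen in 2 LDB3 windows, 1 FHL1 window and 3 FHL2 windows, and the PDLIM7 window has none.

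Cytoplasmic relatives of the members were described from 4 lists of LIM-domain genes with 39 genes, of which 35 were counted. In the MYOCD library 1 of the 35 was called higher and 2 lower. Of all counted genes 5.42% were called higher and 6.35% lower. Among counted protein-coding genes, the closer comparison, these shares were 3.02% and 3.10%. Of the 35, 23 lay above 0, and their median log2 change was 0.20 next to -0.00 for all counted genes. The LIM list of zyxin, paxillin and other adhesion proteins had a median of 0.28 over 16 genes, with ZYX, the gene of zyxin, at 93.8 RPKM in the MYOCD library and 67.8 RPKM in the WT library. In that list PXN, the paxillin gene, stood at 88.1 and 65.1 RPKM and AJUBA at 47.2 and 58.8 RPKM in the MYOCD and WT libraries. PRICKLE3, which encodes a planar polarity protein, was called higher (11.7 and 4.75 RPKM in the MYOCD and WT libraries). LIMS2, which encodes an integrin adaptor of the PINCH type, was called lower (0.290 and 1.44 RPKM), but not with a pseudocount of 1 RPKM. With at least 5 RPKM required, or a mean of at least 1 RPKM, LIMS2 was not counted. LIMS1, also of the PINCH type and more abundant, stood at 31.6 RPKM in the MYOCD library and 28.9 RPKM in the WT library.

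The CSRP, LASP and LIM-nebulette list had 9 counted genes. In it LMO7, which encodes a LIM protein of adherens junctions, was called lower, at 16.1 RPKM in the MYOCD library and 58.1 RPKM in the WT library. The smooth muscle LIM gene CSRP1 stood at 223 and 154 RPKM, LASP1 at 178 and 177 RPKM and LIMCH1 at 61.5 and 71.5 RPKM in the MYOCD and WT libraries. The list median was -0.08, and it was 0.01 when steady reference genes were set to 0. The 8 counted LIM kinase and MICAL genes all lay under 2-fold, with a median of 0.32 and with MICAL2 at 33.4 and 31.6 RPKM, MICAL3 at 29.8 and 24.1 RPKM and LIMK1 at 21.1 and 17.7 RPKM in the MYOCD and WT libraries. FHL5, the nearest FHL relative, was listed at 0 in both libraries, and in its list CRIP1 stood at 199 and 312 RPKM, CRIP2 at 30.0 and 36.3 RPKM and CRIP3 at 0.519 and 0.569 RPKM, with a median of -0.46 over the 2 counted genes.

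By log2 change over the 2 libraries, the relatives and partners nearest to PDLIM7 among 80 counted genes were PRICKLE3 at 1.21, the LIM-homeobox gene LHX1 at 1.59 and the tyrosine phosphatase gene PTPN13 at 0.97. PTPN13, a partner gene just under the limit, stood at 11.3 RPKM in the MYOCD library and 5.49 RPKM in the WT library. LHX1 stood at 3.35 RPKM in the MYOCD library and 0.781 RPKM in the WT library. It was the 1 gene called among 11 counted nuclear LIM genes, whose median was 0.04, with SSBP4 at 45.6 and 59.2 RPKM, RLIM at 20.8 and 20.1 RPKM and LMO4 at 21.6 and 13.0 RPKM in the MYOCD and WT libraries.

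**Figure D5:**
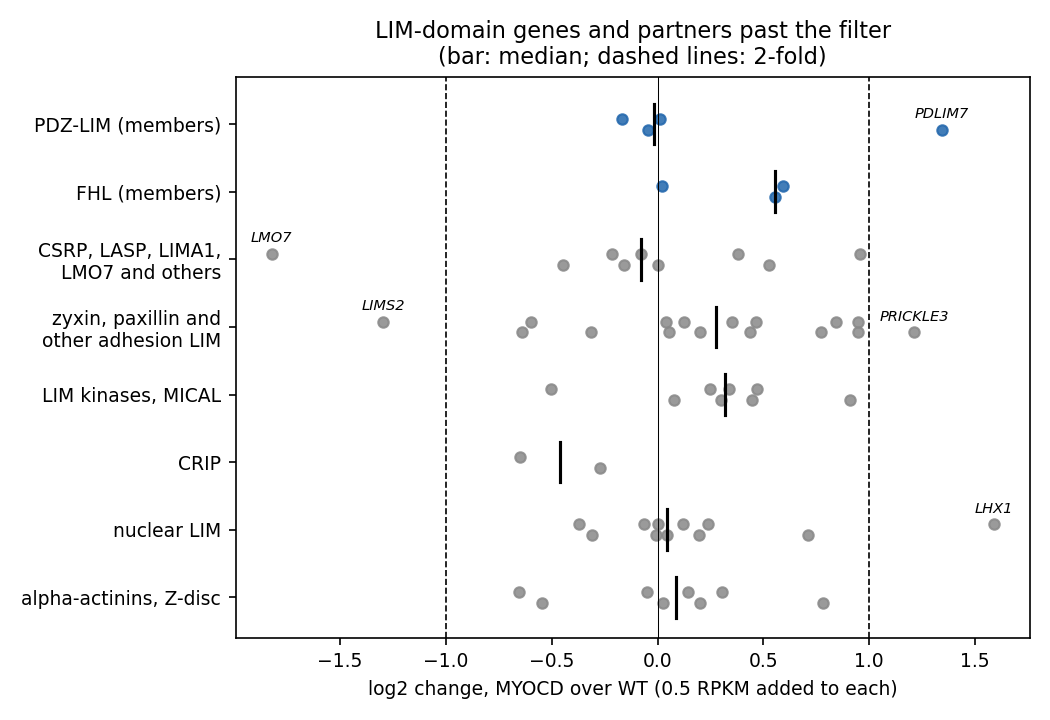
Log2 change, MYOCD over WT with 0.5 RPKM added to each value, of every counted gene of the members (blue) and of 6 lists of related genes (grey), 1 point per gene, with the median of each list as a black bar and 2-fold as dashed lines. PDLIM7 is the 1 member beyond 2-fold, and LMO7, LIMS2, PRICKLE3 and LHX1 are the related genes beyond it.

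No gene of the partners that PDZ-LIM and FHL proteins bind was called with the pseudocount of 0.5 RPKM and the deposited scaling. PTPN13 (ratio of 2.05 between the RPKM values, log2 change of 0.97) and RUNX2 (2.43 and 0.96) lay close to the limit on the higher side. On the lower side ID2 lay close to it, with a ratio of 0.521 and a log2 change of -0.94. PTPN13 and RUNX2 were higher by 2-fold with a pseudocount of 0.1 RPKM, and also with steady reference genes set to 0. ID2 was not called under any setting. The alpha-actinin gene ACTN4, whose product is held by the PDZ domain, stood at 975 RPKM in the MYOCD library and 788 RPKM in the WT library, and ACTN1 stood at 147 RPKM in the MYOCD library and 144 RPKM in the WT library. The muscle alpha-actinins were at or near 0, as ACTN2 was listed at 0 in both libraries and ACTN3 at 0 in the MYOCD library and 0.0137 RPKM in the WT library. Of 22 alpha-actinin and Z-disc genes 8 were counted and none was called, with a median log2 change of 0.09 and PALLD, the gene of palladin, at 56.0 and 50.6 RPKM in the MYOCD and WT libraries. Of 13 genes of kinase and signalling partners 9 were counted and none was called, with a median of -0.13. Among them ID2, the partner of PDLIM5, stood at 107 RPKM in the MYOCD library and 206 RPKM in the WT library, PRKCA at 30.7 and 33.5 RPKM and TRIP11 at 11.0 and 12.1 RPKM. Of 20 FHL partner genes 17 were counted and none was called, with a median of 0.07, which was -0.02 with at least 5 RPKM required. The integrin gene ITGB1 stood at 666 RPKM in the MYOCD library and 622 RPKM in the WT library, CTNNB1 at 94.5 and 86.0 RPKM and CDC25B at 84.2 and 142 RPKM.

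Markers of cell types were set beside the members. Among epithelial keratin genes, KRT8 stood at 1059 RPKM in the MYOCD library and 1523 RPKM in the WT library. KRT18 stood at 1134 and 1647 RPKM, KRT19 at 3.24 and 2.94 RPKM and CDH1 at 35.8 and 35.0 RPKM in the MYOCD and WT libraries. EPCAM, at 2.57 and 0.889 RPKM, was called higher, but not with a pseudocount of 1 RPKM. With at least 5 RPKM required EPCAM was not counted. The 5 epithelial markers summed to 2234 and 3209 RPKM in the MYOCD and WT libraries, with a median log2 change of 0.03. Smooth muscle markers summed to 28.9 RPKM in the MYOCD library and 21.7 RPKM in the WT library, and 3 of 6 were counted, with a median of 0.39: SMTN at 18.2 and 12.1 RPKM, ACTA2 at 8.97 and 8.28 RPKM and MYH11 at 1.24 and 0.830 RPKM. Those not counted were CNN1 at 0.328 and 0.355 RPKM, DES at 0 and 0.0678 RPKM and LMOD1 at 0.139 and 0.0752 RPKM in the MYOCD and WT libraries. Without the filter the median over all 6 was 0.13. Skeletal and heart muscle markers were all under 1 RPKM, with a highest value of 0.150 RPKM in any library and 3 of 6 listed at 0 in both. Fibroblast markers summed to 15.8 RPKM in the MYOCD library and 5.70 RPKM in the WT library, with COL1A1 called higher (14.3 and 3.05 RPKM), THY1 at 0.959 and 1.91 RPKM, PDGFRB at 0.00968 and 0.432 RPKM and a median of 0.66 over these 2 counted genes, COL1A1 and THY1. Endothelial markers had no gene counted, with 4 of 5 listed at 0 in both libraries, and blood cell markers had 1, CD14, at 1.17 RPKM in the MYOCD library and 2.31 RPKM in the WT library. The part of any of these in the level of PDLIM7 was not tested.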

How the data were processed

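RNA-seq libraries of A549 cells, 1 of cells overexpressing MYOCD and 1 of wild-type cells, were analysed from the RPKM values the authors deposited, per the file headers. The submitters' processing notes name Bowtie 0.12.2 and the builds mm8 (a mouse assembly) and GRCh38.p12 without a role. No source used here gives the counting tool, its annotation or its strand setting. The file's opening lines assign its columns to the groups. RPKM holds no counts. The step of 1 read was searched for in GENCODE gene models of 1 transcript and at least 2000 bases. At most 33.4% of low values in the MYOCD library and 30.0% in the WT library lay within 0.1 of a whole number. Chance gives 20% for a step fixed beforehand, and more for the best of many steps, which was taken here. Whole reads were therefore not recovered, depth is unknown, and no count test or counting interval was made.

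The table has 57979 rows with 56255 symbols, and a symbol on several rows was taken from the row with the highest mean. Log2 changes used a pseudocount of 0.5 RPKM, a filter of at least 1 RPKM in at least 1 library and a limit of 2-fold. The calling code was tested on simulated data. Positions and exon overlaps came from GENCODE release 29 matched by identifier, and start windows from RefSeq (GRCh38.p14) matched by symbol. Named genes were the 10 members, MYOCD, the neighbours of a called member, the 3 most abundant genes of each list with those called at 2-fold, and the 3 nearest in log2 change to a called member. CRIP3 and FHL5, ACTN2 and ACTN3, AC145098.1, P4HA2, AC037459.1 and AC108058.1 and the pseudogenes were named for their relation to a member. LIMS1, KRT19, CNN1, DES and LMOD1 were named to set them beside other genes of their lists. The steady reference genes (GPI at 456 and 449 RPKM, VCP at 235 and 248 RPKM and PSMB4 at 159 and 156 RPKM in the MYOCD and WT libraries) had a median log2 change of -0.09 over 11 genes. 1 gene was left out of the lists altogether and is not reported here. The members and lists were chosen with earlier results of these data known. Analyses used Python 3.11.15, pandas 2.3.3 and numpy 2.4.6.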

Additional observations from a re-analysis of the deposited data

How the results depend on the processing

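The alternatives were pseudocounts of 0.1 and 1 RPKM, 3 other scalings, 3 other filters, rows of a symbol added up, and, chosen after seeing the data, a limit of 1.5-fold and protein-coding genes alone. PDLIM7 stayed the 1 member beyond 2-fold under each planned setting, with log2 changes of 1.32 to 1.43, and no member was lower. At 1.5-fold 2 members were higher. With a pseudocount of 0.1 RPKM 5 related genes just under the limit were also beyond 2-fold (ABLIM3, PRICKLE1, PRICKLE2, PTPN13 and RUNX2). The same genes were beyond it with steady reference genes set to 0. With a pseudocount of 1 RPKM LIMS2 and EPCAM were not called. With at least 5 RPKM required LIMS2, EPCAM and LHX1 were not counted, nor was LIMS2 with a mean of at least 1 RPKM. Of the members, PDLIM2 alone changed sign, as given above. Over all genes, 450 were higher and 510 lower with at least 5 RPKM required, and 372 (3.02%) and 382 (3.10%) among 12337 protein-coding genes, against 940 and 1102 among all counted genes. The fibroblast marker median was 2.06 over 1 gene with at least 5 RPKM required. With steady reference genes set to 0 the median of the PDZ-LIM genes was 0.07, against -0.02, and with at least 5 RPKM that of the epithelial markers was -0.52 over 3 genes. Fewer genes pass the stricter filters by construction. No paired analysis was possible because each group has 1 library. Without replicates, differences of the size seen for FHL2 and FHL3 cannot be judged against the spread between cultures.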

Other observations

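All 3 PRICKLE genes of the adhesion LIM list, which encode planar polarity proteins with LIM domains, stood higher in the MYOCD library. PRICKLE1 stood at 3.30 RPKM in the MYOCD library and 1.47 RPKM in the WT library, and PRICKLE2 at 6.84 RPKM in the MYOCD library and 3.31 RPKM in the WT library. Between the RPKM values the ratios were 2.25 for PRICKLE1 and 2.07 for PRICKLE2, beside 2.46 for PRICKLE3. With the pseudocount of 0.5 RPKM the log2 changes of PRICKLE1 and PRICKLE2, 0.95 each, fell short of the 2-fold limit, and with 0.1 RPKM they were 1.12 and 1.03, beyond it. Both genes were also beyond it with steady reference genes set to 0. PRICKLE1 and PRICKLE2 were chosen after their values had been seen.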
